A study of Mus musculus with 6 samples.

Results

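The Rab GTPases are the genes that the deposited table lists under Rab, a number and at most one letter and one further digit, and 59 of its 24421 gene symbols met that rule. RNA was measured in 3 mammary tumours from female FVB/NJ mice labelled MMTV-Tg(LINK-A) and in 3 mammary glands from female FVB/NJ mice labelled Tg(LINK-A), all 5 months old. LINK-A is a human long non-coding RNA, and MMTV is the mouse mammary tumour virus promoter, which drives expression mainly in the epithelial cells of the mammary gland. The gland donors carry the transgene too, under a label that does not name MMTV, so that a difference between the donor lines cannot be told apart from the difference between tissues. The labels do not say whether the libraries of a group came from separate animals, so the spread on which every p-value rests is that of these libraries and may be technical. Values are FPKM, which divide the fragments of a gene by the length of its transcript and by the size of the library, so that genes of different length can be compared. The 59 genes summed to 1628, 1602 and 1667 FPKM in tumours 1 to 3, against 1406, 1391 and 1409.6 FPKM in glands 1 to 3, without overlap. As a share of all FPKM in a library they took 0.279%, 0.307% and 0.343% in the tumours, against 0.283%, 0.272% and 0.278% in the glands, and on that scale tumour 1 lay within the range of the glands.

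Rab proteins form the largest branch of the Ras superfamily of small GTPases and mark the membranes between which vesicles travel. Exchange factors load them with GTP, which places them on a membrane where they recruit effectors such as tethers and motors, and activating proteins switch them off again. A lipid tail added by a prenyltransferase anchors them, and a dissociation inhibitor carries them back through the cytosol. In mammary epithelium this traffic delivers milk proteins, junction proteins and receptors to the correct face of the cell, and in human breast and ovarian cancers RAB25 is a known amplified member.

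The tissues differed in cell types, which bears on every level given here, and in bulk samples fewer cells of a type and less RNA per cell cannot be told apart. All 12 markers of luminal epithelium were higher in the tumours, with a summed level of 3194 to 3633 FPKM, against 1217 to 1299.9 FPKM in the glands. All 9 adipocyte markers were lower, with sums of 95.9 to 352 FPKM in the tumours, against 8008 to 10195 FPKM in the glands, and all 6 fibroblast markers, with sums of 120 to 417 FPKM in the tumours and 1802 to 1939 FPKM in the glands, were lower, as were all 7 endothelial markers. The glands stood apart from each other: summed lymphocyte markers were 254 FPKM in gland 1, 59.0 in gland 2 and 259.8 in gland 3, against 3.76 to 64.8 FPKM in the tumours. Summed skeletal muscle markers were 11169 FPKM in gland 2, 998 in gland 3 and 13.2 in gland 1, against 5.79 to 26.8 FPKM in the tumours. Tumour 3 stood apart from tumours 1 and 2 as well. Adipocyte sums were 349, 352 and 95.9 FPKM in tumours 1 to 3, lymphocyte sums 64.8, 52.6 and 3.76 FPKM, and fibroblast sums 335, 417 and 120 FPKM. Its luminal sum was the highest, at 3633 FPKM. The part of these cell types in the Rab results was not tested, apart from the values set beside them.

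Rab genes moved in both directions, and those tested did so at about the rate of all tested genes. Of the 59, 49 averaged 1 FPKM or more over all libraries and were tested on log2(FPKM + 1). At an adjusted p under 0.05 (limma), 11 of the 49 rose in the tumours and 12 fell, or 22.4% and 24.5%, where 21.9% of all tested genes rose and 23.1% fell. The other 26 did not pass. The 3 tumours lay wholly above or below the 3 glands for 28 of the 49 (57.1%), beside 58.2% of all tested genes: above for 14, beside 29.3%, and below for 14, beside 29.0%. The median log2 fold change was -0.051 for the tested Rab genes and 0.0083 for all 13364 tested genes. On the log2(FPKM + 1) scale 5 Rab genes passed with a change of at least 2-fold. They were Rab15 and Rab25 (higher, beside 7.67% of all genes) and Rab32, Rab37 and Rab40b (lower, beside 14.5%). Quantile normalization moved the median of all genes to 0.12 and gave 12 Rab genes higher and 10 lower, beside 3664 and 2622 of all 13364 genes. With no filter on low values 10 of 58 Rab genes were higher and 18 lower, beside 2954 and 3803 of 18174 genes, so that the split leaned to lower values once rare transcripts entered. Without glands 1 and 3, which leaves 1 gland that is assumed to vary like the tumours, 5 Rab genes passed: Rab15, Rab25 and Rab3d were higher, and Rab12 and Rab40b lower.

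**Figure D1:**
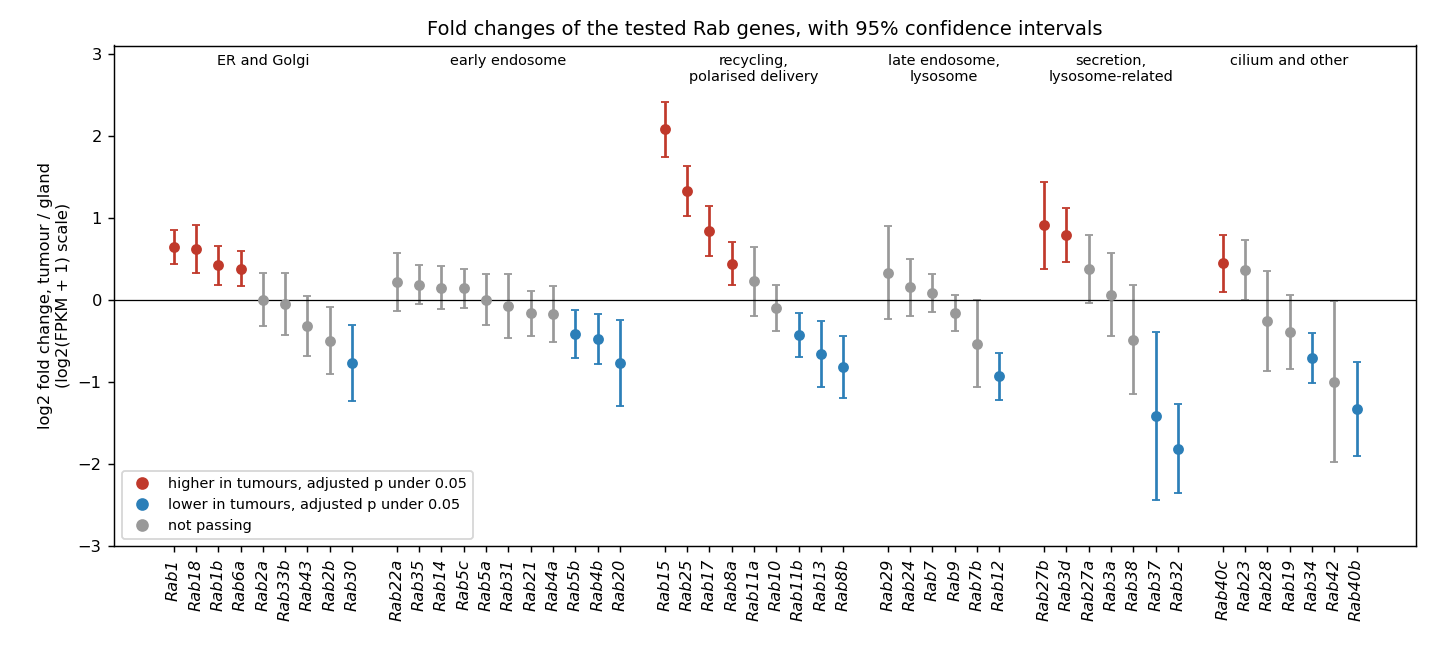
Log2 fold change, tumour over gland, of the 49 tested Rab genes on the log2(FPKM + 1) scale, grouped by where the proteins work, with limma 95% confidence intervals. Red points are the 11 genes higher in the tumours, blue points the 12 lower and grey points the 26 that did not pass; Rab15 lies highest at 2.08 and Rab32 lowest at -1.81.

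Among the Rab genes of recycling endosomes and polarised delivery, 4 of 9 rose (44.4%), 3 fell (33.3%) and 2 did not pass. Of all tested genes 21.9% rose and 23.1% fell, and no group of Rab genes was tested as a set. Both called members with at least a 2-fold rise on the log2(FPKM + 1) scale belong here. On plain means Rab27b, a gene of regulated secretion, also rose more than 2-fold, with 2.29 FPKM in the tumours and 0.745 FPKM in the glands. Rab15, whose protein works at early and recycling endosomes, stood at 78.2, 99.3 and 108 FPKM in tumours 1 to 3, against 23.2, 20.5 and 21.2 FPKM in glands 1 to 3. The lowest tumour stood far above the highest gland, and the log2 fold change was 2.08 (SE 0.14, adjusted p = 9.0e-05), a 4.22-fold rise on the log2(FPKM + 1) scale. Rab25, the epithelial member of the Rab11 subfamily, which guides recycling to the apical surface, had 106, 95.2 and 124 FPKM in the tumours, against 39.9, 41.8 and 45.8 FPKM in the glands. Its groups were far apart, and it rose by 1.32 on the log2 scale (SE 0.13, adjusted p = 3.25e-04). Rab17, which acts in apical recycling and transcytosis of polarised epithelia, had 14.2, 11.6 and 13.3 FPKM in the tumours, against 7.58, 6.26 and 6.71 FPKM in the glands. It rose by 0.84 on the log2 scale (SE 0.13, adjusted p = 0.0022). Rab8a, which sends vesicles from the Golgi to the plasma membrane and the cilium, had 94.9, 84.4 and 81.2 FPKM in the tumours, against 66.9, 58.2 and 65.98 FPKM in the glands. The smaller rise of Rab8a (0.44, SE 0.11, adjusted p = 0.016) did not pass without gland 2 or without gland 3 (adjusted p = 0.0501 and 0.0509).

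Relatives of the genes that rose fell in the same tumours. Rab8b, a close paralogue of Rab8a, had 7.32, 6.79 and 5.84 FPKM in the tumours, against 14.1, 10.1 and 13.5 FPKM in the glands (-0.82 on the log2 scale, SE 0.16, adjusted p = 0.006). Rab11b, which shares recycling endosomes with Rab11a, had 10.4, 12.8 and 11.9 FPKM in the tumours, against 16.7, 15.6 and 15.98 FPKM in the glands (-0.43, SE 0.11, adjusted p = 0.02). Rab13, which carries tight junction proteins to the membrane, had 8.02, 5.25 and 8.21 FPKM in the tumours, against 11.9, 11.6 and 11.7 FPKM in the glands (-0.66, SE 0.17, adjusted p = 0.019). All 3 were lower in each tumour than in any gland. The call of Rab11b was lost without gland 1 (adjusted p = 0.0809) or gland 3 (0.0727), and that of Rab13 without gland 1 (0.0608) or gland 3 (0.0632). Rab11a itself had 64.2, 50.4 and 40.1 FPKM in the tumours, against 40.1, 46.96 and 42.5 FPKM in the glands, with overlapping groups and a 95% interval of the log2 fold change from -0.19 to 0.65. Rab10, which brings the glucose transporter GLUT4 to the surface of fat cells, did not pass either, at 55.8 to 64.6 FPKM in the tumours and 57.4 to 70.98 FPKM in the glands (interval -0.38 to 0.18).

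The promoters of the Rab genes with the largest rises are shown because these are the members that rose at least 2-fold. They span 250 bases before to 50 after the start site, from RefSeq on GRCm38.p6, and for Rab15 the most upstream of its 4 start sites was taken. Capitals mark matches, on either strand, to the TATA box (TATAAA), the CCAAT box, the GC box (GGGCGG) or the cyclic AMP response element (TGACGTCA). They also mark an E-box (CACCTG) and CCGGAA, a form of the site that ETS factors bind. Other forms of these sites were not searched, and this list was drawn up after the sequences had been seen. Rab15 lies on chromosome 12 (76797960 to 76822908, minus strand, mm10) and Rab25 on chromosome 3 (88542029 to 88548300, minus strand).
Rab15, chr12:76822475-76822774, minus strand: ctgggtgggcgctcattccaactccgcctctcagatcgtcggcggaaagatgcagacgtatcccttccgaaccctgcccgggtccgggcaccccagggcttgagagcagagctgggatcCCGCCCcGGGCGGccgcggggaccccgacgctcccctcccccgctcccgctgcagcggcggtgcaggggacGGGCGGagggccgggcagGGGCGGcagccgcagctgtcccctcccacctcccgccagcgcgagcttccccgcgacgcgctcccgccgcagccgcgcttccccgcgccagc
Rab25, chr3:88548230-88548529, minus strand: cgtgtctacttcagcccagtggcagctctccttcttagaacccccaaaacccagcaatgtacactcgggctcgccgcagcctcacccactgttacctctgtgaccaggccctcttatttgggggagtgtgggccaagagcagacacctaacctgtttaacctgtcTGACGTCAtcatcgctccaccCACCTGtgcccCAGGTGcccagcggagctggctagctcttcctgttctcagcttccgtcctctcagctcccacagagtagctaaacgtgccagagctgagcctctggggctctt

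The Rab15 window was 76.3% G and C, beside a median of 52.7% over the 32851 promoters of the table, and held the GC box GGGCGG 4 times, on either strand, which 35.7% of all promoters hold at least 1 time. The Rab25 window was 58.3% G and C, with no GC box. It held TGACGTCA, the full cyclic AMP response element, 85 bases before the start site, a string found in 1.79% of all promoters, and the E-box CACCTG at 64 and, on the other strand, 53 bases before it, which 20.2% of promoters hold. Neither window held TATAAA (13.6% of all promoters), CCAAT (37.4%) or CCGGAA (14.9%). None of the matches overlapped another. Of the 48 Rab genes with a promoter here, GGGCGG occurred in 36, CCAAT in 26 and CCGGAA in 14, counted over all start sites of a gene. CACCTG occurred in 10, TATAAA in 4 and TGACGTCA in 2. The shares of all promoters given above count each start site singly. A gene with several start sites has more places for a match, so these gene counts cannot be set against those shares.

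**Figure D2:**
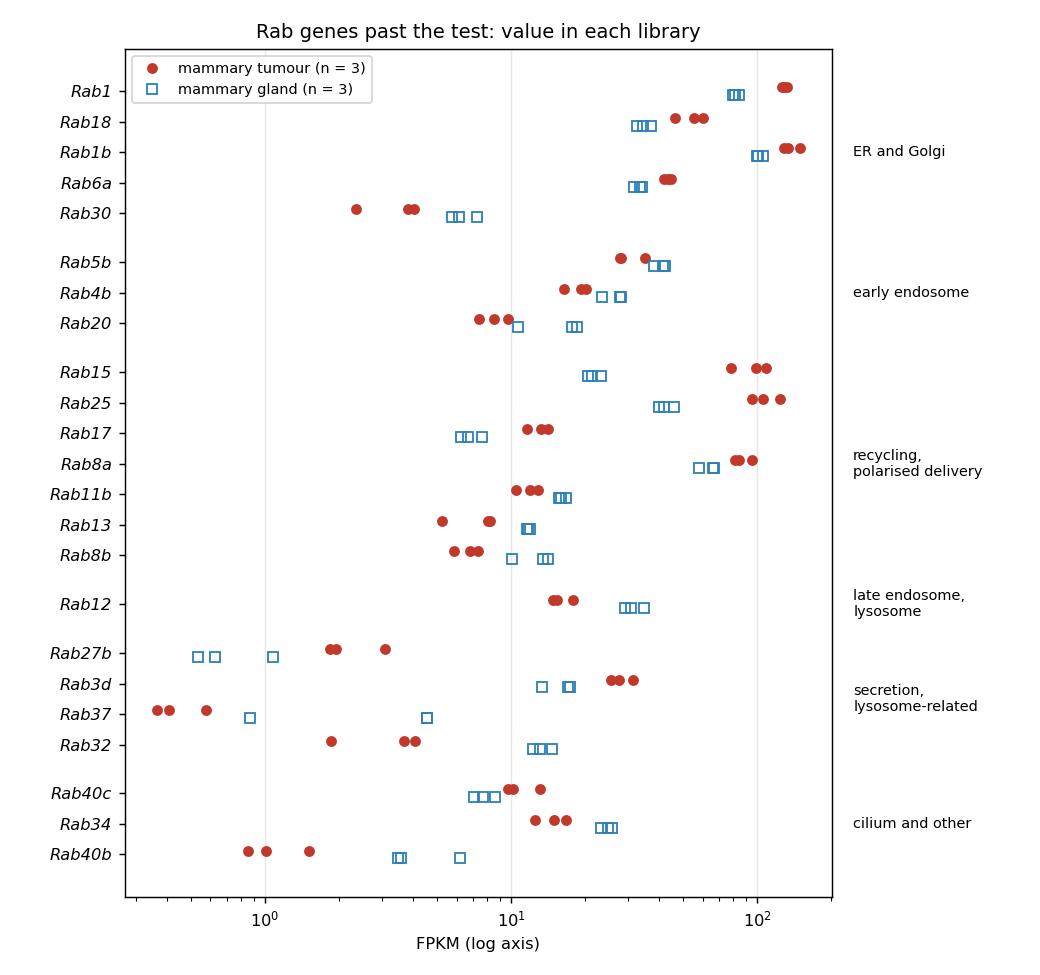
FPKM (log axis) in each library for the 23 Rab genes past the test, by site of action; red circles are the 3 mammary tumours and open blue squares the 3 mammary glands. The groups do not overlap for any of the 23 genes, and Rab37 shows 1 gland, gland 2 at 0.868 FPKM, far from the other 2.

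Set against the summed luminal epithelium markers of the same library, a ratio chosen after the data were seen, few of the 11 genes that rose stayed above the glands. The sum itself was higher in the tumours, so a gene that rose by less than the sum falls on this scale by construction. Rab15 stood at 2.41%, 3.11% and 2.98% of that sum in tumours 1 to 3, against 1.8%, 1.69% and 1.63% in the glands, and was the 1 gene of the 11 that rose whose tumours all lay above the glands on this scale, beside 13.9% of all 2933 genes that rose. Rab25 stood at 3.26%, 2.98% and 3.42% in the tumours, against 3.09%, 3.44% and 3.52% in the glands, and the groups overlapped, as those of Rab27b did. For the other 8, among them Rab17 at 0.363% to 0.437% in the tumours and 0.514% to 0.588% in the glands, the tumours all lay below the glands, beside 58.9% of all genes that rose. The keratin genes weigh heavily in this sum: Krt8 alone had 833 to 891 FPKM in the tumours and 224 to 232 FPKM in the glands.

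Between the endoplasmic reticulum (ER) and the Golgi, 4 of 9 tested genes rose (44.4%), 1 fell (11.1%) and 4 did not pass. The shares over all tested genes were 21.9% higher and 23.1% lower. Rab1, the gene also called Rab1a, whose protein tethers vesicles between ER and Golgi, had 132, 129 and 126 FPKM in the tumours, against 81.6, 79.6 and 84.7 FPKM in the glands. The groups were tight and apart, and Rab1 rose by 0.64 on the log2 scale (SE 0.09, adjusted p = 0.0014). Its paralogue Rab1b had 129, 133 and 149 FPKM in the tumours, against 105, 99.8 and 100.4 FPKM in the glands (0.42, SE 0.10, adjusted p = 0.014). Rab18, found on ER and lipid droplets, had 59.98, 46.5 and 55.6 FPKM in the tumours, against 32.6, 36.9 and 34.4 FPKM in the glands (0.62, SE 0.12, adjusted p = 0.0066). In the same tumours all 9 adipocyte markers were lower and all 12 luminal epithelium markers higher. The part of either cell type in the Rab18 values was not tested. Rab6a, which works in transport within and out of the Golgi, had 43.4, 41.8 and 44.6 FPKM in the tumours, against 31.7, 34.1 and 33.3 FPKM in the glands (0.38, SE 0.09, adjusted p = 0.014). The exons of Rab6a share 708 bases with Mrpl48 on the other strand, which did not pass the test (adjusted p = 0.39), and the exons of Rab18 share 305 bases with an annotated transcript on the same strand.

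The gene that fell in this set was Rab30, a Golgi Rab, with 3.81, 4.05 and 2.34 FPKM in the tumours, against 7.28, 6.16 and 5.75 FPKM in the glands (-0.77, SE 0.20, adjusted p = 0.018). Each tumour was lower than any gland. Rab30 lost its call without gland 1 (adjusted p = 0.0674), Rab1b without gland 3 (0.0623), and Rab6a without gland 1 or gland 3 (0.0672 and 0.0578). A common sum per library also ended the calls of Rab1b and Rab6a (adjusted p = 0.0788 and 0.0712), and quantile normalization those of Rab1b and Rab30 (0.0827 and 0.066). Rab2a, which acts in ER to Golgi and lysosome traffic, had 67.7 to 90.96 FPKM in the tumours and 78.9 to 85.7 FPKM in the glands, with an interval from -0.32 to 0.32. Rab2b (interval -0.91 to -0.08, adjusted p = 0.055), Rab33b and Rab43 did not pass, at 5.16 to 11.1 FPKM in the tumours and 6.87 to 14.9 FPKM in the glands. Without tumour 3 Rab2b fell by 0.65 on the log2 scale (adjusted p = 0.0112), and under median-of-ratios scaling of all libraries it passed as well (-0.50, adjusted p = 0.0452). The exons of Rab2b share 195 bases with Tox4 and 2469 with another annotated transcript, both on the other strand. Those of Rab43 share 4164 bases with an annotated protein-coding gene on the same strand, so that the level of Rab43 is uncertain.

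None of the 11 early endosome genes rose, 3 fell (27.3%) and 8 did not pass, beside 21.9% higher and 23.1% lower of all tested genes. The 3 were Rab20, Rab4b and Rab5b. Rab20, which acts on endosomes and phagosomes, had 7.41, 8.55 and 9.68 FPKM in the tumours, against 18.5, 10.6 and 17.7 FPKM in the glands (-0.77, SE 0.22, adjusted p = 0.027). Gland 2, the gland with few lymphocyte transcripts, lay close to the tumours. Without glands 1 and 3 the log2 fold change of Rab20 was -0.29 and without gland 2 it was -1.01, and the call was lost without gland 1 (adjusted p = 0.0888), gland 3 (0.0974), tumour 1 (0.073) or tumour 2 (0.0734). Rab4b, a fast recycling Rab, had 20.2, 19.3 and 16.4 FPKM in the tumours, against 27.99, 23.3 and 27.6 FPKM in the glands (-0.48, SE 0.13, adjusted p = 0.021). An annotated read-through gene shares 1280 exon bases with Rab4b on the same strand, so that its level is uncertain. Rab5b, one of the paralogues that drive early endosome fusion, had 28.1, 27.7 and 35.1 FPKM in the tumours, against 41.5, 42.4 and 38.1 FPKM in the glands (-0.42, SE 0.12, adjusted p = 0.03).

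Both of these calls rested on few libraries. That of Rab4b was lost without gland 1 (adjusted p = 0.0812), gland 3 (0.0848) or tumour 2 (0.0534). That of Rab5b was lost without gland 1 (0.0946), gland 2 (0.0848), gland 3 (0.0648), tumour 1 (0.0677) or tumour 2 (0.104). The more abundant Rab5c had 98.8, 108 and 106 FPKM in the tumours, against 99.5, 86.6 and 97.5 FPKM in the glands, with overlapping groups (interval -0.10 to 0.38). Rab5a had 22.9, 25.3 and 29.4 FPKM in the tumours, against 22.9, 27.2 and 27.4 FPKM in the glands (interval -0.31 to 0.31). Rab4a, Rab14, Rab21, Rab22a, Rab31 and Rab35 did not pass, with log2 fold changes from -0.17 for Rab4a to 0.22 for Rab22a, and without tumour 3 Rab4a did (-0.31, adjusted p = 0.0463). Rab35, which recycles cargo from endosomes to the surface, had 31.7 to 35.5 FPKM in the tumours and 26.9 to 30.5 FPKM in the glands without overlap, and its interval ran from -0.05 to 0.43. Rab14, at 60.3 to 73.7 FPKM in the tumours and 57.03 to 61.5 FPKM in the glands, was the second most abundant of this set after Rab5c.

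Of the late endosome, lysosome and autophagy genes, 1 of 6 tested fell (16.7%) and 5 did not pass. Of all tested genes 21.9% rose and 23.1% fell. Rab12, which sends receptors from recycling endosomes to lysosomes and is a substrate of the kinase LRRK2, had 14.8, 15.3 and 17.9 FPKM in the tumours, against 29.2, 34.5 and 30.7 FPKM in the glands. Every tumour was well under every gland (-0.93, SE 0.12, adjusted p = 0.001), and the call of Rab12 held in each alternative. Rab7, which governs late endosomes and was the most abundant Rab gene in both tissues, had 152, 136 and 139 FPKM in the tumours, against 127, 137 and 138 FPKM in the glands. Its groups overlapped, and the interval of its log2 fold change ran from -0.15 to 0.32. Rab9, which returns cargo from late endosomes to the Golgi, had 27.03, 27.2 and 26.4 FPKM in the tumours, against 31.9, 30.2 and 28.4 FPKM in the glands, without overlap, yet did not pass (adjusted p = 0.21). Rab29, a Golgi and lysosome Rab linked to LRRK2, had 28.8, 27.6 and 14.99 FPKM in the tumours, against 17.5, 17.9 and 18.4 FPKM in the glands. Tumours 1 and 2 stood above the glands and tumour 3 below them, and without tumour 3 Rab29 passed at 0.62 (adjusted p = 0.0024). Rab7b, a late endosome Rab of myeloid and other cells, had 6.53, 9.18 and 4.55 FPKM in the tumours, against 10.6, 9.82 and 9.25 FPKM in the glands, and passed without tumour 2 (-0.75, adjusted p = 0.0247) but not with all libraries (adjusted p = 0.0904). Rab24, at 17.8 to 24.6 FPKM in the tumours and 16.5 to 18.7 FPKM in the glands, did not pass and shares 1258 exon bases with Prelid1 on the other strand, a gene at 389 to 431 FPKM in the tumours and 147 to 178 FPKM in the glands, so that its level is uncertain.

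Among the Rab genes of regulated secretion and of lysosome-related organelles, 2 of 7 tested rose, 2 fell and 3 did not pass. The share was thus 28.6% in each direction, beside 21.9% higher and 23.1% lower of all tested genes. Rab3d, which sits on the secretory granules of exocrine cells, had 25.6, 27.5 and 31.4 FPKM in the tumours, against 17.4, 13.3 and 17.04 FPKM in the glands (0.79, SE 0.14, adjusted p = 0.0041), and held its call in each alternative. Rab27b, which docks secretory granules and exosome-bearing endosomes, had 1.95, 1.84 and 3.08 FPKM in the tumours, against 0.626, 1.07 and 0.534 FPKM in the glands (0.91, SE 0.22, adjusted p = 0.016). Its tumours all lay above its glands, but the call was lost without gland 1 (adjusted p = 0.0544) or gland 3 (0.065). The paralogue Rab27a had 5.72, 5.73 and 7.74 FPKM in the tumours, against 4.71, 3.86 and 5.48 FPKM in the glands. Although the groups did not overlap, Rab27a did not pass (0.38, interval -0.03 to 0.79, adjusted p = 0.12), and it passed under quantile normalization (0.63, adjusted p = 0.015). Rab3a, the synaptic vesicle Rab, had overlapping groups (interval -0.44 to 0.57) at 8.95 to 13.4 FPKM in the tumours and 8.06 to 13.3 FPKM in the glands.

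Rab32 showed the largest fall of the tested Rab genes on the log2(FPKM + 1) scale. Its protein acts with that of Rab38 in the making of melanosomes and other lysosome-related organelles and is also found at mitochondria. Rab32 had 4.08, 3.65 and 1.86 FPKM in the tumours, against 12.2, 13.1 and 14.7 FPKM in the glands, a 3.51-fold fall (log2 value -1.81, SE 0.23, adjusted p = 9.9e-04). The groups were far apart, and tumour 3 was lowest. Rab38 had 3.37, 1.52 and 1.09 FPKM in the tumours, against 3.13, 2.71 and 3.1 FPKM in the glands. Tumour 1 lay above the glands and the other 2 tumours below them, so Rab38 did not pass (interval -1.15 to 0.18), and without tumour 1 it did, at -0.79 (adjusted p = 0.017). Of the melanocyte markers, Tyr, Tyrp1 and Dct were listed at 0 in all tumours and Tyrp1 in all glands, and the 6 markers summed to 2.68 to 5.92 FPKM in the tumours and 4.17 to 4.97 FPKM in the glands. Of the others, Mlana was higher, at 4.29, 3.61 and 0.807 FPKM in the tumours, against 0.516, 0.57 and 0 FPKM in the glands (adjusted p = 0.036), Mitf was lower, at 1.25 to 1.55 FPKM in the tumours and 3.15 to 3.79 FPKM in the glands (adjusted p = 0.0036), and Pmel was under the filter on low values. The part of melanocytes in the Rab32 and Rab38 values was not tested.

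Rab37, a Rab of secretory granules, had 0.407, 0.578 and 0.364 FPKM in the tumours, against 4.54, 0.868 and 4.53 FPKM in glands 1 to 3. Glands 1 and 3 were high and gland 2 was close to the tumours, as the summed lymphocyte markers were. Its log2 fold change was -1.41 (SE 0.43, adjusted p = 0.034), and -1.94 without gland 2. The call was lost without gland 1 (-1.15, adjusted p = 0.104), gland 3 (-1.15, 0.116), tumour 1 (0.0776), tumour 2 (0.0751) or tumour 3 (0.0637). Quantile normalization ended it too (-0.81, adjusted p = 0.197), and without glands 1 and 3 together the gene fell under the filter on low values. The part of lymphocytes in these values was not tested.

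**Figure D3:**
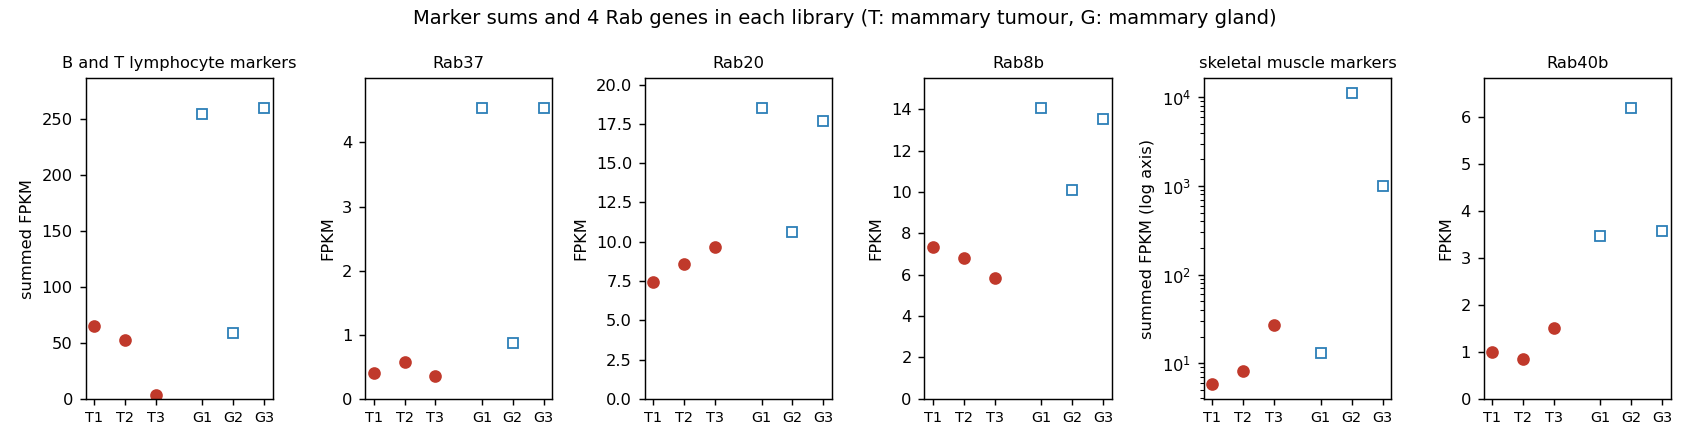
Summed FPKM of the lymphocyte and skeletal muscle markers (the muscle axis is a log axis) and FPKM of Rab37, Rab20, Rab8b and Rab40b in tumours 1 to 3 (red circles) and glands 1 to 3 (open blue squares). Gland 2 has the lowest lymphocyte sum of the glands at 59.0 FPKM, the lowest Rab37, Rab20 and Rab8b of the glands, and the highest muscle sum and Rab40b, at 6.21 FPKM.

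Of the remaining 7 genes, which include those of the primary cilium, 1 rose (14.3%), 2 fell (28.6%) and 4 did not pass. The shares over all tested genes were 21.9% and 23.1%. Rab40b, which has a SOCS box and joins a ubiquitin ligase of the Cullin5 type, had 1.01, 0.853 and 1.51 FPKM in the tumours, against 3.47, 6.21 and 3.58 FPKM in the glands. Each tumour was lower than any gland (-1.33, SE 0.24, adjusted p = 0.0044). The log2 fold change was -1.10 without gland 2 and -1.78 without glands 1 and 3. The call held in each alternative that tested Rab40b, which was not tested at a mean of at least 5 FPKM. Its paralogue Rab40c had 9.74, 10.2 and 13.1 FPKM in the tumours, against 7.67, 8.56 and 7.08 FPKM in the glands (0.45, SE 0.15, adjusted p = 0.043). The call of Rab40c was lost without gland 1 (adjusted p = 0.115), gland 2 (0.0588), gland 3 (0.147), tumour 2 (0.0789) or tumour 3 (0.0694), at a common sum per library (0.148) and with no filter on low values (0.0579). Rab34, needed for early steps in building a cilium, had 14.9, 12.5 and 16.8 FPKM in the tumours, against 25.8, 23.2 and 24.9 FPKM in the glands (-0.71, SE 0.13, adjusted p = 0.0045). Rab23, a negative regulator of Hedgehog signalling, had 4.02, 3.79 and 4.85 FPKM in the tumours, against 2.62, 3.18 and 3.38 FPKM in the glands, without overlap, and did not pass (adjusted p = 0.094) except under quantile normalization (0.73, adjusted p = 0.007). Rab28, at 15.2 to 30.6 FPKM in the tumours and 23.8 to 33.1 FPKM in the glands, and Rab19 did not pass, nor did Rab42, which was listed at 0 in tumour 1 and at 2.05 and 0.971 FPKM in the other tumours, against 1.97 to 3.65 FPKM in the glands. Without tumour 2 Rab42 passed at -1.37 (adjusted p = 0.034).

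The promoters of Rab32 and Rab40b are shown as those of the Rab genes that fell most and for which a sequence was found, with the same rules and motifs. Rab32 lies on chromosome 10 (10545002 to 10558265, minus strand, mm10) and Rab40b on chromosome 11 (121356125 to 121388251, minus strand).
Rab32, chr10:10558158-10558457, minus strand: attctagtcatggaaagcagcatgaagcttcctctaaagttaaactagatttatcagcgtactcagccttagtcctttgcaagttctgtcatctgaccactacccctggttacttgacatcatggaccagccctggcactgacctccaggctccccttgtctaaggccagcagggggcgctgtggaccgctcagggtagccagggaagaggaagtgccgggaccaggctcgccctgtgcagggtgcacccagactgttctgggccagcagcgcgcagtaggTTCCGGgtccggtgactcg
Rab40b, chr11:121388202-121388501, minus strand: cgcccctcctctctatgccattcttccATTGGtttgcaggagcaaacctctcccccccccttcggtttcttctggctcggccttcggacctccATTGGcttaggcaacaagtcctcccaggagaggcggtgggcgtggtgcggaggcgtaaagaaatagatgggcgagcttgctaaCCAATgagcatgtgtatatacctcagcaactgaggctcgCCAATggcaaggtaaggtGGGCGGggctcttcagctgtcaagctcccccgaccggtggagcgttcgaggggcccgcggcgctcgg

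Rab40b held CCAAT 4 times, 2 of them on the other strand, and GGGCGG 17 bases before the start site, and its window was 60.7% G and C. CCAAT occurred in 26 and GGGCGG in 36 of the 48 Rab genes with a promoter here, counted over all start sites of a gene. With each start site counted singly, 37.4% of all promoters hold CCAAT and 35.7% hold GGGCGG, which is an unlike count. The Rab32 window was 57.3% G and C. It held CCGGAA, a form of the site that ETS factors bind, on the other strand 32 bases after the start site. No other motif of the list was found in it, and other forms of the ETS site were not searched.

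The balance between paralogues differed between the tissues in several subfamilies, given here as shares of the summed FPKM of a subfamily in each library, as a description. Rab25 made up 58.6%, 60.1% and 70.5% of the Rab11 subfamily in the tumours, against 41.3%, 40.1% and 43.9% in the glands, while Rab11b made up 5.79% to 8.09% in the tumours and 14.9% to 17.2% in the glands. The Rab11 subfamily as a whole summed to 180.3, 158 and 176 FPKM in the tumours, against 96.7, 104 and 104 FPKM in the glands. Rab8a made up 92.9% ± 0.373 of the Rab8 pair in the tumours and 83.6% ± 1.41 in the glands (SD, n = 3 each). Rab40c made up 89.7% to 92.3% of the Rab40 pair in the tumours and 58.0% to 68.8% in the glands. Rab27b reached 24.3% to 28.5% of the Rab27 pair in the tumours and 8.87% to 21.8% in the glands, and Rab38 reached 29.3% to 45.2% of the Rab32 pair in the tumours and 17.2% to 20.4% in the glands. Rab3d took 70.1% to 75.4% of the Rab3 genes in the tumours and 50.02% to 67.5% in the glands. Among the Rab5 genes Rab5b took 17.2% to 20.6% in the tumours and 23.4% to 27.1% in the glands. Rab5c took 62.1% to 67.1% in the tumours and 55.4% to 60.7% in the glands, and the shares of Rab5a overlapped. Rab6b took 0.149% to 0.231% of the Rab6 pair in the tumours and 1.87% to 2.42% in the glands. In the Rab1, Rab2, Rab4, Rab7, Rab9 and Rab22 (Rab22a and Rab31) pairs the shares overlapped between tumours and glands.

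**Figure D4:**
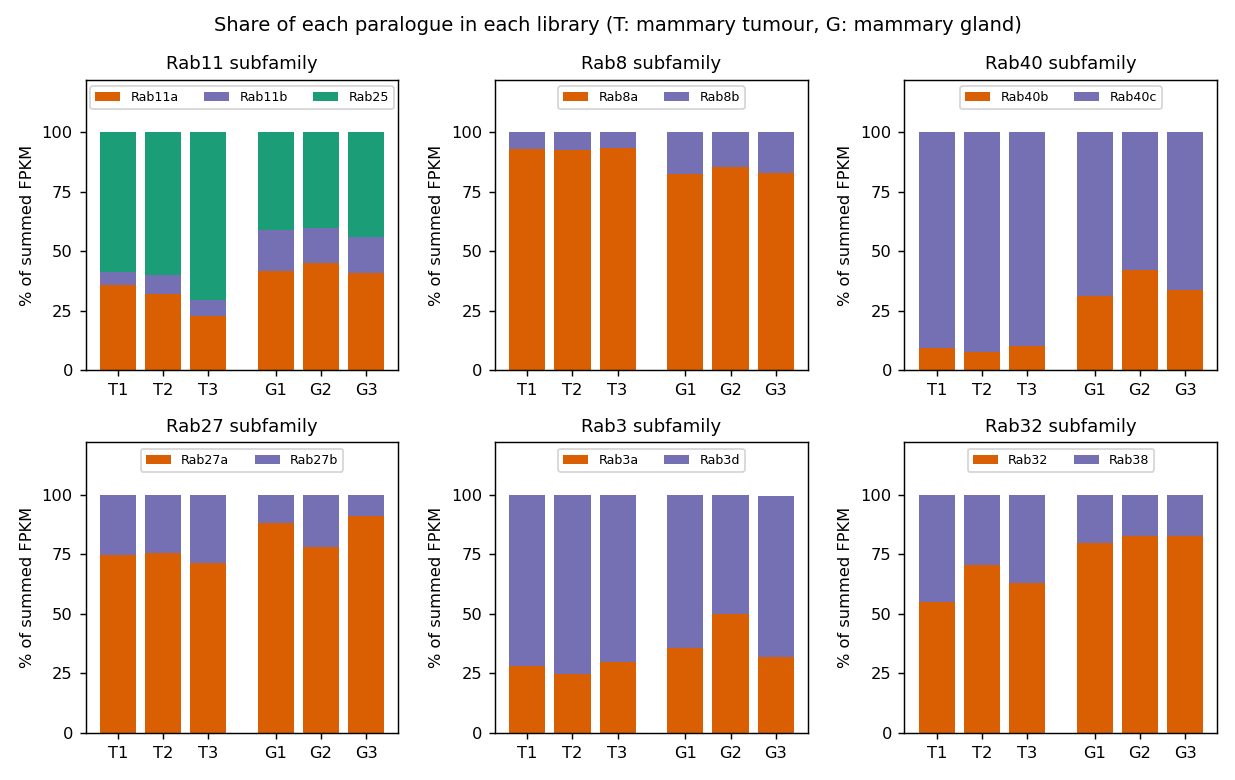
Share of each paralogue in the summed FPKM of its subfamily, in percent, for 6 subfamilies in tumours 1 to 3 (T, left) and glands 1 to 3 (G, right); members at or near 0 are not drawn. Rab25 takes 58.6% to 70.5% of the Rab11 subfamily in the tumours and 40.1% to 43.9% in the glands, and Rab8a takes more of the Rab8 pair in every tumour than in any gland.

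In order of level, Rab7 (mean 142 FPKM), Rab1b (137), Rab1 (129), Rab25 (108) and Rab5c (104) led in the tumours, and Rab7 (134), Rab1b (102), Rab5c (94.5), Rab2a (81.98) and Rab1 (81.98) in the glands. By its mean Rab25 was the fourth most abundant Rab gene in the tumours, where its values overlapped those of Rab5c and Rab15, and the tenth in the glands, where they overlapped those of Rab11a. Rab15 was the sixth in the tumours and not among the 10 most abundant in the glands. Values of Rab7 and Rab1b overlapped in the tumours, as did those of Rab1 and Rab2a in the glands, so the neighbours named here are not separated by their spread. The recycling and polarised delivery genes took 26.3% to 27.5% of all Rab FPKM in the tumours and 19.8% to 20.3% in the glands, and the early endosome genes 21.4% to 23.7% in the tumours and 25.95% to 28.5% in the glands.

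The 10 Rab genes under a mean of 1 FPKM were Rab3b, Rab3c, Rab6b, Rab9b, Rab26, Rab33a, Rab36, Rab39, Rab39b and Rab44. Rab3c was listed at 0 in all 6 libraries. Rab33a and Rab44 were listed at 0 in all tumours, against 0.281 to 0.429 FPKM for Rab33a and 0.295 to 0.391 FPKM for Rab44 in the glands. Rab44 is a large Rab of mast cells and other blood cells. Of 9 neutrophil and mast cell markers the 4 peptidases Cpa3, Mcpt4, Tpsb2 and Cma1 were lower in the tumours. Mcpt4 stood at 50.6 to 69.5 FPKM in the glands and 0.393 to 4.01 FPKM in the tumours. S100a8 was higher, at 259 to 3100 FPKM in the tumours and 14.7 to 28.7 FPKM in the glands. The other 4 did not pass, among them Kit at 20.0 to 30.0 FPKM in the tumours and 26.3 to 31.3 FPKM in the glands. The part of mast cells in the Rab44 values was not tested. Rab6b, a paralogue of Rab6a best known from neurons, had 0.0666 to 0.1 FPKM in the tumours and 0.607 to 0.846 FPKM in the glands, and Rab36 had 0 to 0.102 FPKM in the tumours and 0.503 to 1.04 FPKM in the glands. With no filter on low values Rab6b, Rab33a, Rab36, Rab39, Rab39b and Rab44 passed as lower, with log2 fold changes from -0.68 for Rab36 to -0.42 for Rab44 and adjusted p from 0.002 for Rab6b to 0.044 for Rab39. At such levels the number of fragments behind a value is unknown. Rab26, an exocrine granule Rab, was the only 1 of the 10 with a higher mean in the tumours, at 0.699 to 1.82 FPKM in the tumours and 0 to 0.763 FPKM in the glands, with overlap. Rab39 and Rab39b stood at 0 to 0.236 FPKM in the tumours and 0.296 to 0.965 FPKM in the glands, and Rab3b and Rab9b were listed at 0 in all tumours and at up to 0.152 FPKM in the glands.

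The genes for proteins that lipidate, load, switch off and read Rab GTPases also moved in both directions. Of 123 tested genes on 4 lists 17 were higher (13.8%) and 26 lower (21.1%), beside 21.9% and 23.1% of all tested genes. In all 35% were called, beside 45.1% of all tested genes, and the medians of their log2 fold changes were -0.011 and 0.0083. Quantile normalization turned the split to 25 higher and 19 lower. It shifted all tested genes the same way, from 2933 higher and 3090 lower to 3664 higher and 2622 lower. Among 8 genes of prenylation and recycling of Rab proteins 2 rose (25%, beside 21.9% of all tested genes) and 6 did not pass. Rabggtb, the catalytic subunit of the geranylgeranyl transferase, averaged 54.9 ± 5.19 FPKM in the tumours and 38.2 ± 3.26 FPKM in the glands (SD, n = 3 each), and rose by 0.51 on the log2 scale (SE 0.11, adjusted p = 0.011). Rabif, a chaperone of nucleotide-free Rab proteins, averaged 28.2 ± 2.83 FPKM in the tumours and 16.9 ± 4.18 FPKM in the glands (0.73, adjusted p = 0.017), a call lost without gland 3 (adjusted p = 0.0561) or tumour 2 (0.0618). The dissociation inhibitor Gdi2 (205 ± 32.7 FPKM in the tumours and 171 ± 4.58 FPKM in the glands) and the prenylated Rab acceptor Rabac1 (121 ± 35.8 FPKM in the tumours and 158 ± 5.71 FPKM in the glands) did not pass, though Rabac1 was lower without tumour 1 (-0.64, adjusted p = 0.0202), under quantile normalization (0.0408) and at a common sum per library (0.0417).

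Of 35 exchange factors 3 rose (8.57%), 9 fell (25.7%) and 23 did not pass, beside 21.9% higher and 23.1% lower of all tested genes. The DENN domain gene Dennd2a, an exchange factor for Rab9, averaged 0.355 ± 0.179 FPKM in the tumours and 5.23 ± 0.419 FPKM in the glands (-2.21, SE 0.17, adjusted p = 1.4e-04). Als2cl, a relative of the Rab5 exchange factor alsin, averaged 3.61 ± 0.433 FPKM in the tumours and 13.1 ± 2.38 FPKM in the glands (-1.61, SE 0.17), and Dennd1c, which acts on Rab35, averaged 1.84 ± 0.867 FPKM in the tumours and 7.6 ± 2.87 FPKM in the glands (-1.57, SE 0.33). Dennd1b, another Rab35 exchange factor, rose by 1.02 (SE 0.16, adjusted p = 0.0027) to 6.28 ± 1.15 FPKM in the tumours, against 2.56 ± 0.223 FPKM in the glands, and the Rab5 exchange factor Rin2 by 0.53 (SE 0.09), with 50.3 ± 2.68 FPKM in the tumours and 34.5 ± 1.26 FPKM in the glands. Ccz1 of the Rab7 exchange complex (33.4 ± 1.89 FPKM in the tumours and 26.9 ± 2.21 FPKM in the glands) and Rab3ip, the Rab8 exchange factor Rabin8 (16.03 ± 0.968 FPKM in the tumours and 13.3 ± 0.906 FPKM in the glands), did not pass, and Ccz1 did without tumour 1 (adjusted p = 0.046), with no filter on low values (0.049) and under median-of-ratios scaling (0.0317). Without glands 1 and 3 the calls of Dennd1c (-0.94, adjusted p = 0.187), Dennd1b (0.0786) and Rin2 (0.115) were lost.

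Of 34 tested GTPase activating proteins 7 rose (20.6%), 6 fell (17.6%) and 21 did not pass, beside 21.9% higher and 23.1% lower of all tested genes. Tbc1d8, a TBC domain gene, had 22.1, 28.8 and 39.2 FPKM in the tumours, against 10.2, 8.25 and 7.74 FPKM in the glands (1.65, SE 0.21, adjusted p = 0.0011), with every tumour above every gland. Usp6nl, which acts on Rab5, rose by 1.01 (SE 0.21) and Rab3gap2, of the complex that acts on Rab3 and exchanges Rab18, by 0.82 (SE 0.15), and leaving out glands 1 and 3 ended the calls of Tbc1d8, Usp6nl and Rab3gap2 (adjusted p = 0.0587, 0.117 and 0.104). Tbc1d2b fell by 1.36 (SE 0.14, adjusted p = 4.2e-04). Tbc1d10c, a gene of lymphocytes that acts on Rab35, had 5.05, 3.71 and 0.828 FPKM in the tumours, against 21.4, 6.36 and 21.9 FPKM in the glands, again with glands 1 and 3 high, as for the lymphocyte markers. Its log2 fold change of -2.06 (SE 0.59, adjusted p = 0.026) was -0.98 without glands 1 and 3, and the call was lost without gland 1 (adjusted p = 0.0804), gland 3 (0.0905) or tumour 2 (0.0543). Tbc1d20, which acts on Rab1 and Rab18 (35.3 ± 4.63 FPKM in the tumours and 34.9 ± 4.51 FPKM in the glands), and Tbc1d13 did not pass.

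Of 46 tested effectors 5 rose (10.9%), 11 fell (23.9%) and 30 did not pass, beside 21.9% higher and 23.1% lower of all tested genes. The motor gene Myo5b, whose myosin pulls vesicles that carry Rab11 proteins and Rab8a, had 8.94, 11.4 and 13.4 FPKM in the tumours, against 1.9, 1.51 and 1.51 FPKM in the glands. All tumours were far above all glands (2.2, SE 0.17, adjusted p = 1.5e-04), and the call held in each alternative. Mlph, which links Rab27 proteins to class V myosins, had 24.8, 28.9 and 23.3 FPKM in the tumours, against 9.47, 10.6 and 10.9 FPKM in the glands (1.23, SE 0.12, adjusted p = 3.6e-04), and also held. The class V myosin of exocrine and other epithelia, Myo5c, had 10.6, 14.2 and 13.5 FPKM in the tumours, against 7.81, 5.33 and 6.01 FPKM in the glands (0.9, SE 0.17). The third class V myosin gene, Myo5a, went the other way, with 1.57, 2.86 and 1.89 FPKM in the tumours, against 6.64, 5.65 and 6.19 FPKM in the glands (-1.22, SE 0.19, adjusted p = 0.0021). Ehbp1l1, which binds Rab8 proteins in apical transport, fell by 1.77 (SE 0.18) and Mical1, an actin oxidising effector, by 1.41 (SE 0.26). Leaving out glands 1 and 3 ended the calls of Myo5c, Myo5a and Mical1 (adjusted p = 0.0631, 0.0952 and 0.164). Appl2, a Rab5 effector (51.6 ± 11.6 FPKM in the tumours and 37.3 ± 1.81 FPKM in the glands, SD, n = 3 each), and Rab11fip5, a Rab11 effector, did not pass, though both did without tumour 1 (adjusted p = 0.0447 and 0.0267).

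**Figure D5:**
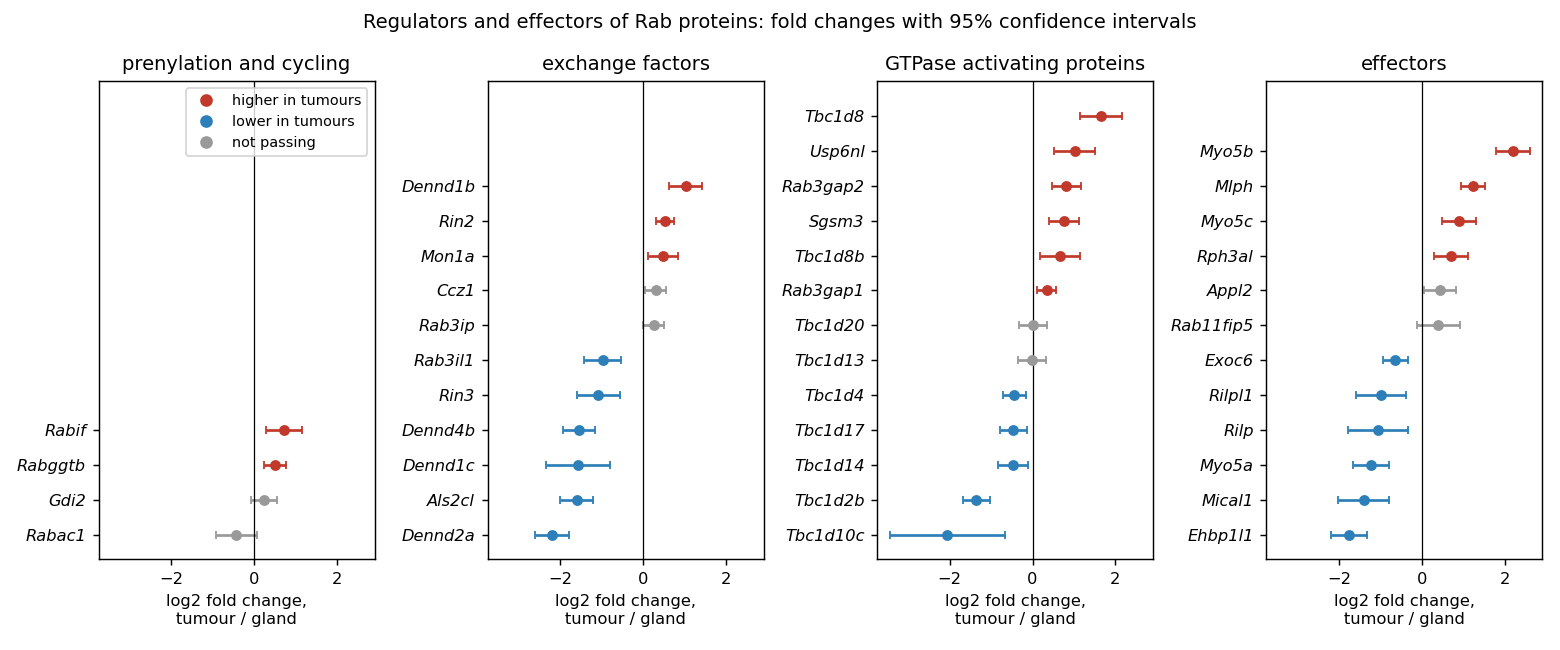
Log2 fold changes, tumour over gland, with 95% confidence intervals, of the genes that the naming rule gave in each list of Rab regulators and effectors. Red points are higher in the tumours, blue points lower and grey points did not pass; Myo5b at 2.2 and Dennd2a at -2.21 lie farthest out.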

How the data were processed

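The 3 tumour and 3 gland libraries are grouped as labelled. The authors deposited 1 value per gene symbol and library, taken here as FPKM, since the header names no unit and the values are not whole, never negative and sum to 486080 to 582996 per library. The submitters' processing notes name HISAT2, StringTie and mm10, without their roles; the sources used here do not give the annotation. Depth is unknown, so counting error did not enter any test.

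Genes averaging 1 FPKM or more were compared, tumour minus gland, on log2(FPKM + 1) by limma 3.58.1 (R 4.3.3; empirical Bayes with trend). Tests were 2-sided, and p-values were adjusted by Benjamini-Hochberg over all 13364 tested genes and called at 0.05. Fold changes on this scale understate those of low genes. The labels do not pair same-numbered tumours and glands, which were treated as unpaired. The deviations of same-numbered tumours and glands had r = -0.054, -0.12 and -0.12 across genes. Cell types that set single libraries apart enter these deviations. The r values therefore cannot decide whether same-numbered libraries shared an animal or a batch. Positions come from GENCODE M21 (GRCm38, or mm10), where all 59 symbols matched 1 gene, 1 of them by a newer symbol, and 20 share exon bases with another annotated gene; promoters come from RefSeq. Whether counting used strand is not given, so overlapping genes are uncertain.

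Every tested Rab gene is described. The rule for the 4 lists gave up to 6 called genes per direction by size of change, at a mean of at least 5 FPKM in 1 group, and up to 2 not called by level; the text names the first of these in order. The members, lists and tests were chosen with earlier results of these data known.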

Additional observations from a re-analysis of the deposited data

How the results depend on the processing

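Without glands 1 and 3, 760 genes were higher and 1098 lower, 3 Rab genes were higher and 2 lower, and 4 regulators and effectors were higher and 6 lower; this leaves 1 gland, and the cause of the lost calls was not tested. A fold change of at least 2 left 1025 and 1942 genes, 2 and 3 Rab genes, and 7 and 14 regulators and effectors. At a mean of at least 5 FPKM, which tests fewer genes, 1864 genes and 15 regulators and effectors were lower. Leaving out 1 library gave 2043 to 3094 genes higher and 2174 to 3308 lower, 6 to 11 Rab genes higher and 5 to 13 lower (6 higher and 6 lower without gland 3, 5 lower without gland 1), and 12 to 25 regulators and effectors higher and 15 to 31 lower (15 lower without gland 3, 16 without gland 1). The replicate number as a block, which the labels do not make a pairing, gave 6 of 49 Rab genes higher and 9 lower. Of all 13364 genes it gave 2147 higher and 2581 lower. Of the 23 called Rab genes none turned direction in any alternative run. The 11 that kept their call in each one but the fit without glands 1 and 3 were Rab1, Rab12, Rab15, Rab17, Rab18, Rab25, Rab32, Rab34, Rab3d, Rab40b and Rab8b, and 5 kept it there too. Rab40b was not tested at a mean of at least 5 FPKM, so for it that alternative does not count. Some genes that had not passed turned direction. Under quantile normalization Rab19 stood at 0.0022, Rab33b at 0.12, Rab38 at 0.0025, Rab5a at -0.059 and Tbc1d20 at -0.058. Median-of-ratios scaling gave -0.0098 for Rab5a. A common sum per library gave -4.2e-04 for Rab3a, -0.065 for Rab5a and -0.051 for Tbc1d20. Without glands 1 and 3 Rab3a stood at -0.29, Rab5a at -0.076 and Tbc1d13 at 0.083. Leaving out 1 library, the log2 fold change ranged from -0.075 to 0.14 for Rab2a, -0.17 to 0.10 for Rab31, -0.20 to 0.059 for Rab33b, -0.091 to 0.24 for Rab3a, -0.092 to 0.081 for Rab5a, -0.13 to 0.090 for Tbc1d13 and -0.080 to 0.11 for Tbc1d20. With no depth given, values under about 1 FPKM cannot be weighed by their counts.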
